A study of Homo sapiens with 12 samples.

Results

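The clustered protocadherin genes are the protein-coding GENCODE genes on chromosome 5 whose symbols begin with PCDHA, PCDHB or PCDHG. There are 53 of them, 15 in the alpha cluster (chr5:140786136-141012347, hg38), 16 in the beta cluster (chr5:141051374-141249365) and 22 in the gamma cluster (chr5:141330514-141512977). With 10 kb added to each side, the locus spans 747 kb (chr5:140776136-141522977). It holds 47 of the 158028 regions listed for the histone variant H2A.Z and its acetylated form, H2A.Zac.

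The regions come from chromatin immunoprecipitation sequencing (ChIP-seq) of the human K562 line, which was derived from a chronic myeloid leukemia. Both copies of EP400, the motor and scaffold subunit of the TIP60 complex, had been given a degradation tag (dTAG). EP400 was put back from the AAVS1 locus either as the wild-type protein (WT) or as a protein lacking the SANT and HD domains, which hold the TRRAP subunit (ΔTRRAP), and the tagged protein was then degraded in both lines for 24 hours with 500 nM dTAG-V1. Each line was 1 clone, so clone and genotype cannot be told apart. For each line there were 2 biological replicates each of H2A.Z, H2A.Zac and input, which gives 12 libraries. The lists were made from merged replicates, so no region has a value per sample, a spread or a replicate test, and the read depth behind a region is unknown.

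A region is called lost where the signal was higher in WT cells, gained where it was higher in ΔTRRAP cells, and unchanged where it was listed as common to both lines. These calls do not exclude each other. At the locus, 4 of 9 changed H2A.Z and 2 of 6 changed H2A.Zac regions overlapped an unchanged region of the same mark. Over the whole lists, 40.3% and 46.7% of changed regions did. The number of a region is a log10 likelihood ratio, which weighs one condition against the other and is not a fold change. Lost and gained regions were required to pass a log10 likelihood ratio of 3. A site in no list is one where no peak passed the authors' filters, and it may still carry signal.

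The clustered protocadherins are cadherin-like adhesion proteins of the cell surface. They are best known from neurons, where each cell expresses a few of them and the combination gives the cell an identity that its own branches recognise. In the alpha and gamma clusters, each variable first exon has a promoter of its own and is spliced to constant exons shared by the cluster, whereas each beta gene is a single exon. Most of these promoters hold a conserved sequence element with the letters CGCT at its core, a site for the insulator protein CTCF, which together with cohesin brings a chosen promoter to distant enhancers. DNA methylation and H3K9 methylation keep the others silent.

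Within the 250 bases before and 50 bases after the start site, CGCT was found on the sense strand of 51 of the 53 promoters (96.2%), against 66.6% of the promoters of all 19970 protein-coding genes on chromosomes 1 to 22 and X. The 2 without it were PCDHA9 and PCDHGC5. Counting either strand gave 96.2% and 82.5%. A set closer in base composition is the 2368 protein-coding genes, members included, with G + C under 45% in the 300 bases before the start site. Of these, 20.2% held CGCT on the sense strand and 34.0% on either strand. In the 100 bases before the start site alone, the sense strand held CGCT in 48 of 53 members (90.6%) and in 36.2% of all genes (9.76% of the G + C-poor set). All 20 members with an H2A.Z region at the start site held it there, as did 28 of the 33 without such a region (84.8%). Of the 10 members with a lost or gained region, a stretch of 40 bases around the CGCT nearest to 60 bases before the start site is given here, read from the hg38 genome in the sense of the gene, with CGCT in capitals, because the stretch shows how alike these promoters are within a cluster.
PCDHA2 (chr5:140794779-140794818, plus strand): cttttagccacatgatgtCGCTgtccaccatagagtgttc
PCDHA8 (chr5:140841128-140841167, plus strand): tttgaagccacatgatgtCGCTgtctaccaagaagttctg
PCDHB2 (chr5:141094542-141094581, plus strand): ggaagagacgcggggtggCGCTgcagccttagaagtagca
PCDHB5 (chr5:141135177-141135216, plus strand): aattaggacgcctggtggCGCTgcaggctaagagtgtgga
PCDHGA2 (chr5:141338701-141338740, plus strand): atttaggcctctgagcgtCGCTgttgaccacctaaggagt
PCDHGB1 (chr5:141350023-141350062, plus strand): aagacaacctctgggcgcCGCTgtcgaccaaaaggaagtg
PCDHGA4 (chr5:141354958-141354997, plus strand): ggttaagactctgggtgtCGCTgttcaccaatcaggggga
PCDHGA7 (chr5:141382647-141382686, plus strand): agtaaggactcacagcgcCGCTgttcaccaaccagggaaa
PCDHGA8 (chr5:141392566-141392605, plus strand): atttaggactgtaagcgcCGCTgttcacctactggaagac
PCDHGC4 (chr5:141484950-141484989, plus strand): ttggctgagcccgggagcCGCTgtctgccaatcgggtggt

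The words around CGCT differed between clusters. ATGTCGCT was present on the sense strand of 10 alpha promoters and of no beta or gamma promoter, and it occurs in 0.185% of all protein-coding promoters of this length (0.29% counting either strand). GTGGCGCT was present in 14 of the 16 beta promoters and in no other member (0.926% of all promoters, 1.59% on either strand). GCCGCTGT was present in 12 gamma promoters only (1.17% of all promoters, 2.07% on either strand), and GTCGCTGT in 6 alpha and 6 gamma promoters (0.441% of all promoters, 0.861% on either strand). These words were picked because many member promoters hold them, so a higher share in members than in all promoters follows from the choice. The shares of all promoters include the members: of the 37 promoters with ATGTCGCT on the sense strand, 10 are these alpha promoters. The words overlap each other at CGCT, and a match is a match of letters only, since no CTCF data were analysed here.

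**Figure D1:**
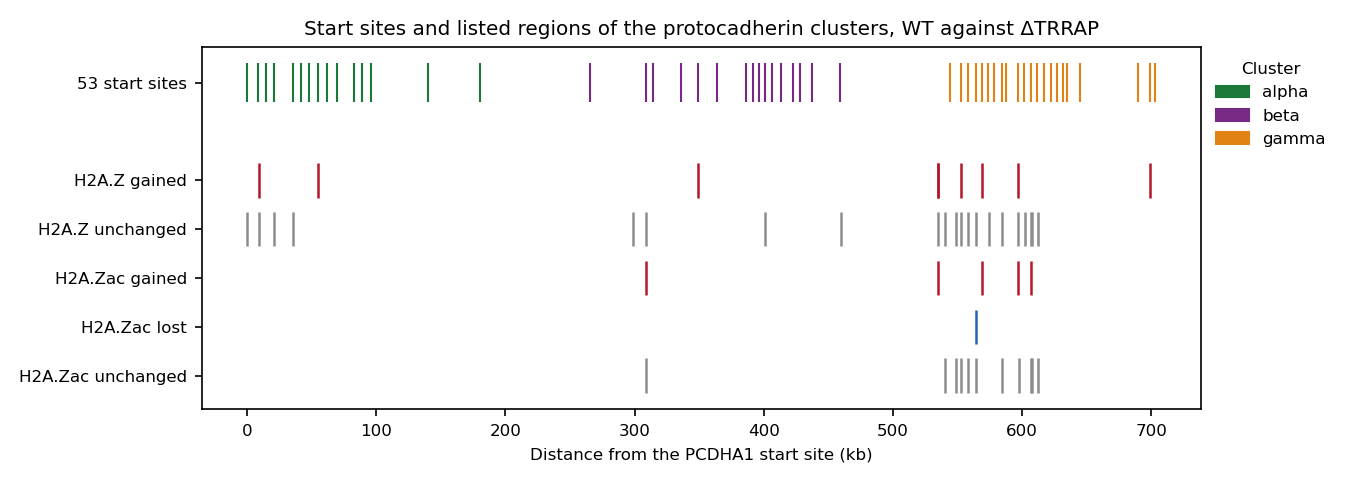
Start sites of the 53 clustered protocadherin genes (top row, coloured by cluster) and the 47 listed regions (lower rows, 1 tick at the centre of each region), by distance from the PCDHA1 start site in kb. H2A.Zac regions are absent from the alpha cluster, and the gamma cluster holds 15 of the 30 H2A.Z and 13 of the 17 H2A.Zac regions.

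H2A.Z was listed in all 3 clusters and H2A.Zac mainly in gamma. Of the 30 H2A.Z regions, 6 lay in alpha, 5 in beta, 15 in gamma and 4 outside the clusters. Of the 17 H2A.Zac regions, none lay in alpha, 2 in beta, 13 in gamma and 2 outside. The gamma cluster held 8.22 H2A.Z and 7.12 H2A.Zac regions per 100 kb, against 2.65 and 0.0 in alpha, 2.53 and 1.01 in beta, and 2.09 and 3.12 over the whole lists. The longest stretch without a region of either mark ran for 243 kb from PCDHA8 to the region upstream of PCDHB2 (chr5:140841644-141084684) and held 8 start sites. The next ran for 86.3 kb between PCDHGB5 and PCDHGC4, with 7 start sites.

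The changed regions of the locus were nearly all gains. Of the 30 H2A.Z regions, 9 were gained (30%) and none was lost, whereas over all listed H2A.Z regions 14.1% were gained and 19.8% lost. The surroundings were nearer to the locus, with 25.9% of all H2A.Z regions gained and 14.4% lost within 5 Mb to each side, and 23.7% gained over the rest of chromosome 5. Of the 17 H2A.Zac regions, 5 were gained (29.4%) and 1 was lost (5.88%), against 26.3% and 25.9% over all listed H2A.Zac regions. The gained share of the H2A.Zac regions was thus near the background. Most regions of the locus lie at start sites, and among regions at the start sites of all protein-coding genes 7.44% of H2A.Z and 13.4% of H2A.Zac regions were lost, so that the low counts of lost regions stand closer to this background than to the whole lists. The gained shares of the same regions were 15.7% and 30.7%. Among changed regions alone, 9 of 9 for H2A.Z were gains (100%, 95% Wilson interval 70.1 to 100) and 5 of 6 for H2A.Zac (83.3%, 43.6 to 97.0). Within 5 Mb to each side of the locus, gains made up 64.3% of the changed H2A.Z regions (90 gained and 50 lost) and 56.0% of the changed H2A.Zac regions (139 and 109). For regions at the start sites of protein-coding genes anywhere, gains were 67.8% and 69.6% of the changed regions. These intervals cover counting error only, and regions of 1 locus share their surroundings, so no test was made.

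A region of H2A.Z lay within 1 kb of the start site of 20 members (37.7%), and a region of H2A.Zac at 9 of these 20 (17.0% of members). Of all protein-coding genes, 62.4% had H2A.Z there and 64.2% had H2A.Zac. By cluster, H2A.Z was listed at 5 of 15 alpha, 4 of 16 beta and 11 of 22 gamma start sites, and H2A.Zac at none, 1 and 8 of them. The other 33 members had neither mark. They are PCDHA3, PCDHA6, PCDHA7, PCDHA9 to PCDHA13, PCDHAC1 and PCDHAC2 in alpha, PCDHB1, PCDHB3, PCDHB4, PCDHB6 to PCDHB8, PCDHB10 to PCDHB14 and PCDHB16 in beta, and PCDHGA1, PCDHGA5, PCDHGA6, PCDHGA9 to PCDHGA12, PCDHGB6, PCDHGB7, PCDHGC3 and PCDHGC5 in gamma.

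At start sites, H2A.Z was gained at 7 of 53 members (13.2%) and lost at none, where 13.9% of all protein-coding genes had a gained and 6.55% a lost H2A.Z region. H2A.Zac was gained at 4 members (7.55%) and lost at 1 (1.89%), against 36.8% and 16.7% of all genes. The share of members with gained H2A.Z was therefore close to the background, and the share with changed H2A.Zac was below it. Fewer members than genes overall had the mark at all. Among genes that had a region of the mark at the start site, H2A.Z was gained at 7 of 20 members (35%, Wilson interval 18.1 to 56.7) and at 22.3% of all genes. H2A.Zac was gained at 4 of 9 members (44.4%, 18.9 to 73.3) and at 57.3% of all genes, and it was lost at 1 of 9 (11.1%, 1.99 to 43.5) and at 26.0%. These intervals hold the values of all genes. A lost H2A.Z region, seen at 10.5% of all genes with H2A.Z, was seen at 0 of 20 members (0.0 to 16.1), an interval that holds that share. The intervals cover counting error only, and no test was made.

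**Figure D2:**
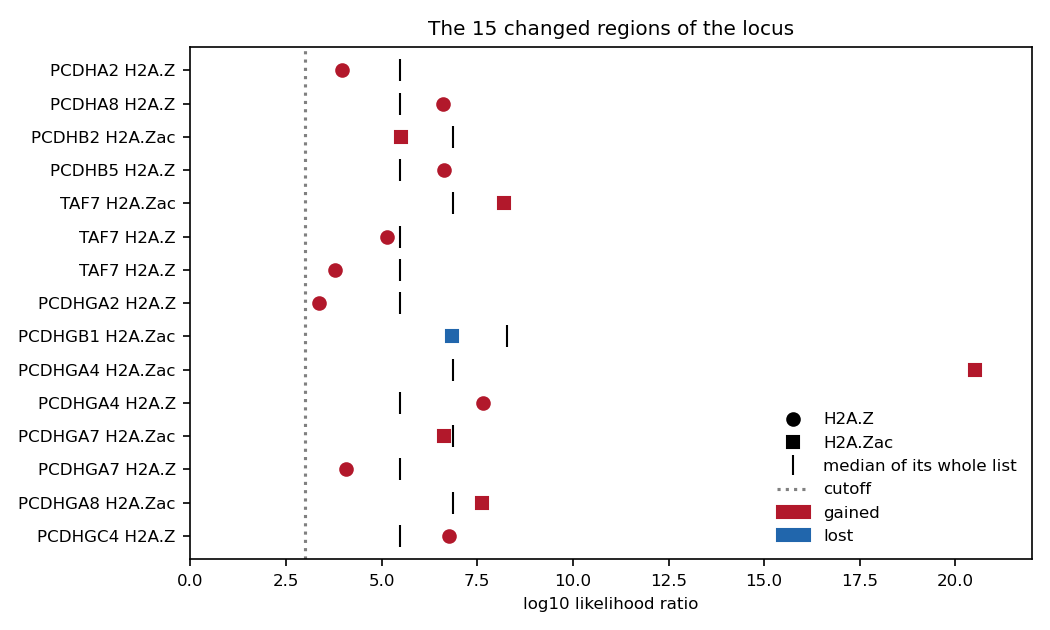
The log10 likelihood ratio of the 15 changed regions (circles, H2A.Z; squares, H2A.Zac; red, gained; blue, lost), in order along the chromosome and named by the gene whose start site is nearest. The black bar is the median of all regions of the same mark and class, the dotted line is the cutoff of 3, and the H2A.Zac region of PCDHGA4 lies apart at 20.5.

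In the alpha cluster, the 5 members with H2A.Z were PCDHA1, PCDHA2, PCDHA4, PCDHA5 and PCDHA8, and none had H2A.Zac. PCDHA8 (ENSG00000204962) had a gained region of 375 bp (chr5:140841269-140841643, log10 likelihood ratio 6.60), all in its first exon, with no unchanged region. PCDHA2 (ENSG00000204969) had a gained region of 360 bp (chr5:140794970-140795329, log10 likelihood ratio 3.97) inside an unchanged one of 511 bp. The value for PCDHA2 lay just above the cutoff, whereas that for PCDHA8 stood above the median of 5.48 of all gained H2A.Z regions. PCDHA1, PCDHA4 and PCDHA5 had 1 unchanged region each, with log10 likelihood ratios of 0.839, 0.113 and 0.525. The 5 lay among the first 8 genes of the cluster, within 55.0 kb, and the 7 genes after PCDHA8 had none. This stretch was marked out after its values were seen.

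In the beta cluster, H2A.Z was listed at PCDHB2, PCDHB5, PCDHB9 and PCDHB15. PCDHB5 (ENSG00000113209) had the only gained H2A.Z region of the cluster (chr5:141135230-141135654, 425 bp, log10 likelihood ratio 6.64), and it had no H2A.Zac. PCDHB2 (ENSG00000112852) was the only beta gene with H2A.Zac. There, a gained region (chr5:141094594-141094886, log10 likelihood ratio 5.52) met an unchanged one end to end (chr5:141094887-141095194), both largely on 1 unchanged H2A.Z region (chr5:141094613-141095104). Gain of acetylation was thus called over the first 271 bases of this gene and not over the stretch beyond. PCDHB9 and PCDHB15 had unchanged H2A.Z alone. A further unchanged H2A.Z region lay upstream of PCDHB2 (chr5:141084685-141085152), ending 9463 bp before its start site, away from any member's promoter.

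In the gamma cluster, 10 of the 12 genes from PCDHGA2 to PCDHGB5 had H2A.Z within 59.2 kb, PCDHGA5 and PCDHGA6 being the exceptions. Of the 9 genes beyond PCDHGB5, 1 had it, PCDHGC4. PCDHGA1, the first gene of the cluster, had no region at its start site, but 3536 bp into the gene an unchanged H2A.Z region (chr5:141334050-141334970) lay across an unchanged H2A.Zac region (chr5:141334433-141335057). This stretch too was chosen after its values were seen.

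PCDHGA4 (ENSG00000262576) had the highest log10 likelihood ratios of the locus for both marks. Its H2A.Zac region (chr5:141354930-141355673, 744 bp) was gained with a log10 likelihood ratio of 20.5, at percentile 92.4 of all gained H2A.Zac regions. Its H2A.Z region (chr5:141354972-141355753, 782 bp) was gained with 7.64, at percentile 78.2 of its list. Both ran from just before the start site through the start codon, and no unchanged region of either mark was listed there. PCDHGA4 and PCDHGA7 were the 2 members at which both marks were gained. At PCDHGA7 (ENSG00000253537) the log10 likelihood ratios were 4.07 for H2A.Z (chr5:141383002-141383475) and 6.63 for H2A.Zac (chr5:141382671-141383145). The gained H2A.Zac lay across the start site, with an unchanged H2A.Zac region after it. The gained H2A.Z began 260 bp after the start site and lay wholly inside an unchanged H2A.Z region (chr5:141382680-141383676), so these bases carry both calls.

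PCDHGB1 (ENSG00000254221), whose start site lies 4.92 kb before that of PCDHGA4, had the only lost region of the locus. H2A.Zac was lost over 686 bp (chr5:141350062-141350747, log10 likelihood ratio 6.85, at percentile 37.6 of all lost H2A.Zac regions), around an unchanged H2A.Zac region of 279 bp, while H2A.Z was unchanged (chr5:141350090-141350950). An lncRNA, ENSG00000280026, is annotated on the opposite strand within the first exon of PCDHGB1 and starts inside the lost region, so the region cannot be assigned to one of the 2 genes. The 150 bases before the start sites of these neighbours are given from hg38, with CGCT in capitals, because the 2 genes carry opposite H2A.Zac calls. The called H2A.Zac regions begin only 37 bp (PCDHGB1) and 91 bp (PCDHGA4) before the start sites, so the stretches lie partly outside them. A link between these sequences and the calls was not tested.
PCDHGB1 (chr5:141349949-141350098, plus strand): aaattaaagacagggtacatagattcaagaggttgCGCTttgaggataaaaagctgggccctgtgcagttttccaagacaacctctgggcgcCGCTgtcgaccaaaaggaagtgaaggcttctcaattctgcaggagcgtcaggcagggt
PCDHGA4 (chr5:141354871-141355020, plus strand): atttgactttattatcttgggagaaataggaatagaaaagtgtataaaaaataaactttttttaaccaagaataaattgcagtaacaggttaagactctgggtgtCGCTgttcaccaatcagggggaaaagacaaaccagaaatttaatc

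The PCDHGA4 stretch holds CGCT at 1 place and has a G + C content of 32.0%. The PCDHGB1 stretch holds it at 2 places and has 50%. CGCT followed by GT begins 45 bases before the start site of PCDHGA4 and 58 bases before that of PCDHGB1.

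Among the other gamma genes, PCDHGA8 (ENSG00000253767) had a gained H2A.Zac region (chr5:141392781-141393257, log10 likelihood ratio 7.62) and 2 unchanged H2A.Z regions. The start of the gained region overlapped an unchanged H2A.Zac region (chr5:141392593-141392852), so the shared bases carry both calls. Its end met another unchanged H2A.Zac region (chr5:141393258-141393549). PCDHGA2 (ENSG00000081853) had a gained H2A.Z region of 272 bp (chr5:141338747-141339018, log10 likelihood ratio 3.36), at percentile 1.17 of its list and so barely past the cutoff. It lay inside an unchanged H2A.Zac region and largely on an unchanged H2A.Z region (chr5:141338774-141339412). PCDHGA3, PCDHGB3 and PCDHGB5 had unchanged regions of both marks. PCDHGB2 and PCDHGB4 had unchanged H2A.Z alone. PCDHGC4 (ENSG00000242419), 1 of the C-type genes that differ from the others in sequence and regulation, had a gained H2A.Z region (chr5:141484706-141484982, log10 likelihood ratio 6.77) that ended 48 bp before its start site. It was the only region at a member's start site to lie wholly upstream.

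**Figure D3:**
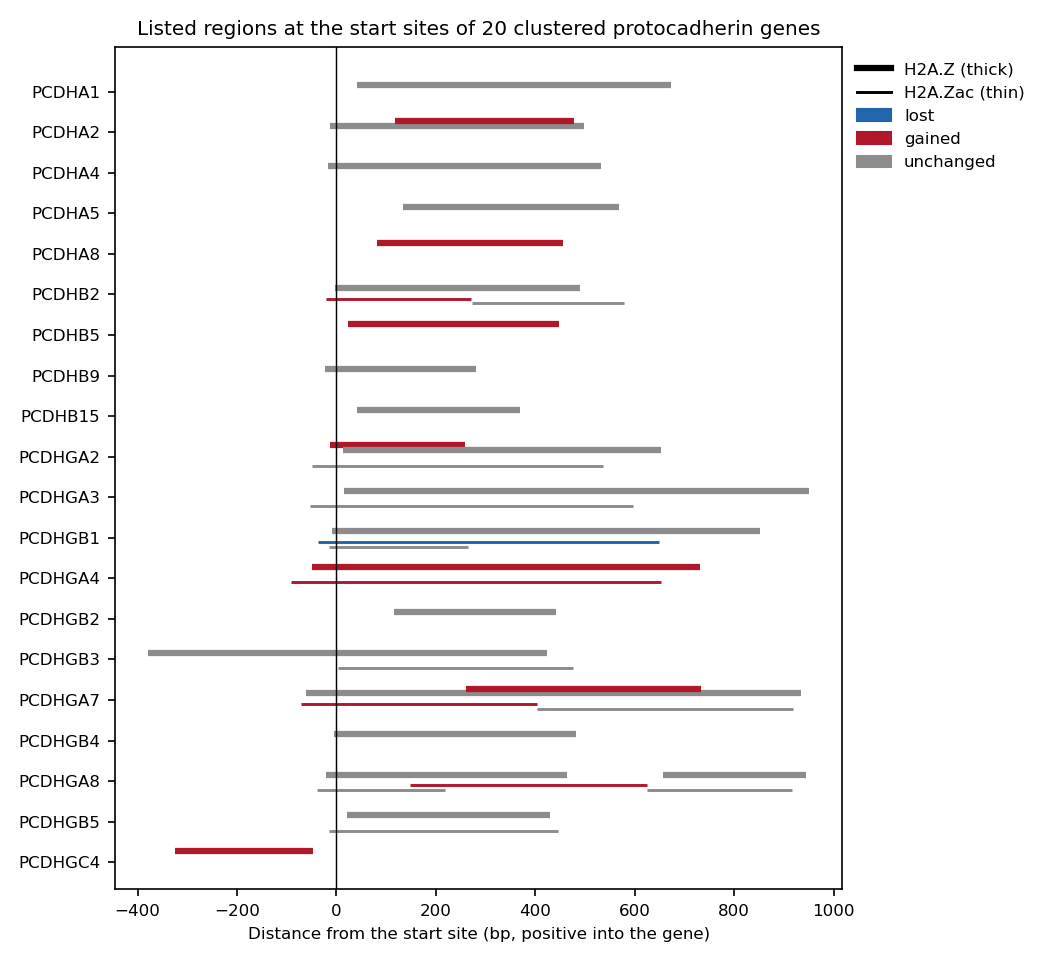
Extent of every listed region at the start sites of the 20 members with H2A.Z, by distance from the start site in bp (thick lines, H2A.Z; thin lines, H2A.Zac; red, gained; blue, lost; grey, unchanged). Apart from PCDHGB3 and PCDHGC4, the first H2A.Z region begins between 62 bp before and 134 bp after the start site and runs into the first exon.

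The regions lay almost wholly downstream of the start sites. Of the 24 H2A.Z regions at a member's start site, 23 had their centre after it, as did all 14 H2A.Zac regions. The median centre lay 263.5 bp after the start site over all 24 H2A.Z regions and 257.0 bp after it over the 14 H2A.Zac regions. The start codon was covered by 20 of the 24 and 11 of the 14. Of these 38 regions, 37 had 50% or more of their length in the first exon of the canonical transcript.

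Measured as how far H2A.Z reached before the start site, the members had a median of 7 bp, with a range from -134 bp (beginning after the start site, PCDHA5) to 379 bp (PCDHGB3). All protein-coding genes with H2A.Z had a median of 804 bp. The reach was under 100 bp at 18 of 20 members (90%, Wilson interval 69.9 to 97.2) and at 7.08% of all genes. The share was 26.6% over genes whose H2A.Z covered at most 1 kb and 23.9% over other genes with a G + C content under 45% in the promoter (n = 255). With regions counted only where they lay on the start site or the 500 bases after it, the shares were 94.7% of members (18 of 19) and 37.1% of all genes. HOX genes, which are also clustered, had 1 of 9 (11.1%), and ZNF genes of chromosome 19 had 8.04% of 199. H2A.Z covered a median of 501.5 bp at members and 1423 bp at all genes with H2A.Z.

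H2A.Z without H2A.Zac was more frequent at members than elsewhere. Of the 20 members with H2A.Z at the start site, 11 had no H2A.Zac region (55.0%, Wilson interval 34.2 to 74.2), against 549 of 12461 protein-coding genes (4.41%). By cluster, the counts were 5 of 5 in alpha (56.6 to 100), 3 of 4 in beta (30.1 to 95.4) and 3 of 11 in gamma (9.75 to 56.6). The alpha and gamma intervals touch at 56.6%, the beta interval overlaps both, and no difference between clusters was tested. Among genes whose H2A.Z covered at most 1 kb, members included, the share was 12.9% (346 of 2692). Among other genes with a G + C-poor promoter the share was also 12.9% (33 of 255). It was 0 of 9 among HOX genes and 0 of 199 among ZNF genes of chromosome 19. Searching for H2A.Zac up to 5 kb away left 9 of 20 members (45%) and 3.39% of all genes without it. The 2 marks were called from libraries of unknown depth, and an H2A.Zac site below the peak threshold would count as missing.

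Seen from the regions, 17 of the 30 H2A.Z regions of the locus lay on H2A.Zac (56.7%, 39.2 to 72.6), compared with 82.8% of all listed H2A.Z regions. The reverse held for H2A.Zac. All 17 of its regions lay on H2A.Z (81.6 to 100), whereas 60.5% of all listed H2A.Zac regions did.

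**Figure D4:**
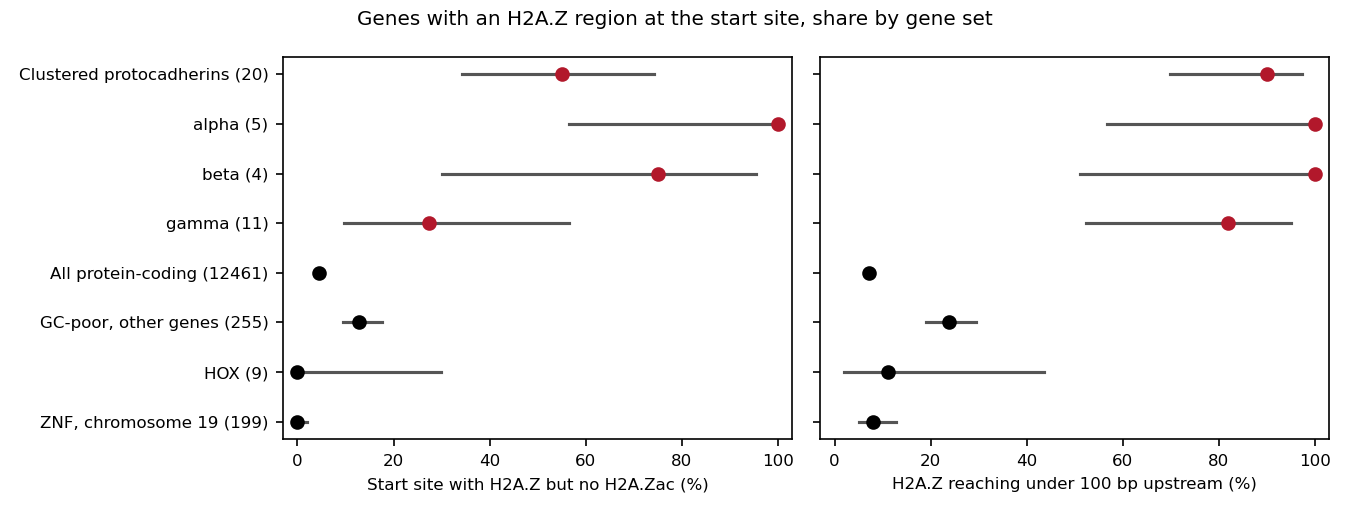
Share of genes with H2A.Z at the start site that had no H2A.Zac there (left, %) and whose H2A.Z reached under 100 bp upstream (right, %), by gene set, with 95% Wilson intervals and the number of genes with H2A.Z in brackets. In both panels the points of the clustered protocadherins lie to the right of those of the other sets, while in the left panel the gamma interval overlaps some of theirs.

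The members share a base composition that the selection did not use. In the 300 bases before the start site the median G + C content was 37.3% (30.3 to 61.7), and in the 300 bases after it 53% (42.0 to 73.0), so the median step across the start site was 14.0 percentage points. For all protein-coding genes, the medians were 62.0% and 66.0% and the median step 3.33. G + C rose across the start site in 52 of 53 members (98.1%) and in 65.6% of all genes. The 5 C-type genes, PCDHAC1, PCDHAC2, PCDHGC3, PCDHGC4 and PCDHGC5, were the exception, with 53.3% to 61.7% before the start site, and PCDHGC4 was the only one of them with H2A.Z. CpG dinucleotides numbered a median of 6 before and 13 after the start site in members, against 21 and 24 in all genes.

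Members with and without H2A.Z overlapped in base composition. The median G + C content after the start site was 54.2% in the 20 with H2A.Z and 51.7% in the 33 without, with ranges from 45.3 to 59.3 and from 42.0 to 73.0. Before the start site the medians were 38.2% and 37.0%. The ratio of observed to expected CpG dinucleotides before the start site had a median of 0.469 (0.292 to 0.783) in the members with H2A.Z and of 0.644 (0.135 to 1.03) in those without. These differences were not tested. For the 9 members with H2A.Zac, the median after the start site was 55.0% (50.3 to 58.3), and for the 11 with H2A.Z alone it was 52.3% (45.3 to 59.3).

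**Figure D5:**
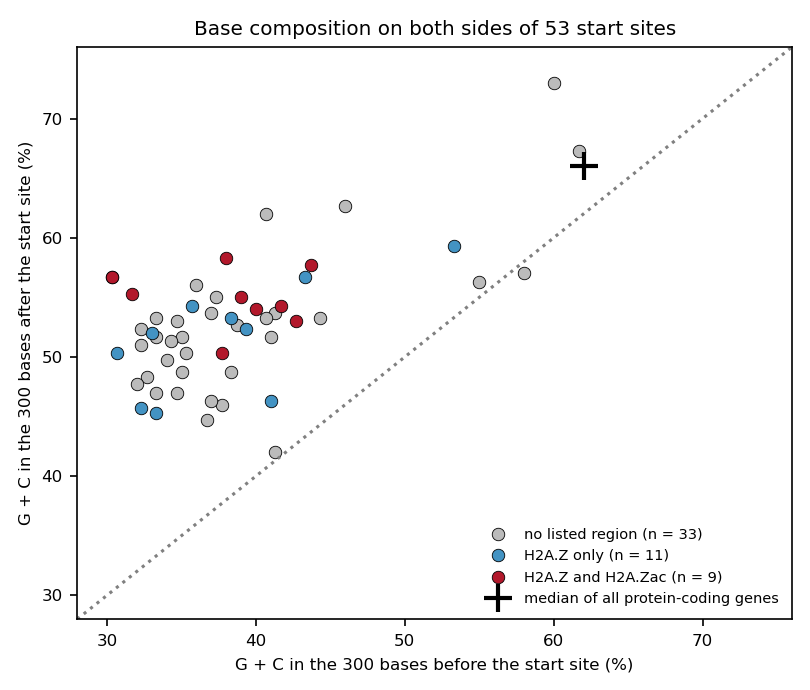
G + C content of the 300 bases before (x axis, %) and after (y axis, %) the start sites of the 53 members, coloured by the marks listed there. The cross is the median of all protein-coding genes, the dotted line marks equal content, and members with and without H2A.Z overlap.

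The clustered protocadherins are related in sequence, and reads from stretches that occur more than once cannot be placed with certainty. Of the 47 regions, 31 held no stretch of 50 bases that occurs again in the locus. At 3, over 50% of such stretches were repeated, so some reads there may be misplaced. These were the H2A.Z region of PCDHGB4 (65.8%) and the H2A.Z and H2A.Zac regions of PCDHGB5 (67.2% and 62.9%). Where else in the locus each stretch occurs was not recorded, and repeats at the length of the 100-bp paired reads were not counted. The gained regions of PCDHA8 and PCDHA2 had 31.9% and 26.7%, and those of PCDHGA4 had 1.64% for H2A.Z and 1.73% for H2A.Zac. Over the first 500 bases of the gene the median repeated share was 1.0% for members with H2A.Z and 0.0% for those without, and it passed 50% at 3 members with H2A.Z, PCDHB9 (51.7%), PCDHGB4 (67.8%) and PCDHGB5 (69.2%), and at 2 without, PCDHB8 (78.0%) and PCDHB13 (77.8%).

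TAF7 and SLC25A2 lie between the beta and gamma clusters. At the start site of TAF7, which encodes a subunit of the general transcription factor TFIID, H2A.Zac was gained over 1404 bp (chr5:141320308-141321711, log10 likelihood ratio 8.20). H2A.Z was gained there in 2 regions, with 5.13 (chr5:141320384-141320792) and 3.78 (chr5:141321002-141321405), the latter wholly inside an unchanged one (chr5:141320903-141321654). An lncRNA, ENSG00000288095, starts inside the gained H2A.Zac region and 22 bp from the gained H2A.Z region with 3.78. These gains therefore cannot be assigned to TAF7 alone. SLC25A2, a mitochondrial carrier gene, had no region. Unchanged regions of both marks lay at the start of an lncRNA, ENSG00000272070 (chr5:141326239-141326995 for H2A.Z). DIAPH1, a formin gene whose end reaches into the flank past the gamma cluster, starts outside the locus. At its start site H2A.Z was gained (log10 likelihood ratio 6.52), and H2A.Zac was both gained (13.6) and lost (4.66). Without the regions at the TAF7 start site, the changed regions of the locus were 7 gained for H2A.Z, and 4 gained and 1 lost for H2A.Zac.

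Protocadherin genes outside the clusters mostly had neither mark. Of 12, PCDH1 and PCDH9 had H2A.Z (16.7%), unchanged at PCDH1 and gained in part at PCDH9 (log10 likelihood ratio 4.70), both with unchanged H2A.Zac. At PCDH12, H2A.Zac was lost with 22.9 and no H2A.Z was listed. The other 9 had no region of either mark.

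Of 21 genes for proteins that act on these clusters, namely CTCF, cohesin and its loaders and release factors, SMCHD1, DNA methyltransferases and the H3K9 methylation machinery, 20 had H2A.Z and 21 had H2A.Zac at the start site. H2A.Z was gained at 7 and lost at none, where 22.3% of all genes with H2A.Z had a gained and 10.5% a lost region. H2A.Zac was gained at 16 and lost at 2, with SMC3, a core cohesin subunit, in both counts, where 57.3% of all genes with H2A.Zac had a gained and 26.0% a lost region. CTCF had unchanged regions of both marks. The gained H2A.Zac regions with the highest log10 likelihood ratios, which rank the calls and not the size of the change, were at EHMT2, an H3K9 methyltransferase (12.0), RAD21, the cohesin subunit that closes its ring (11.3), and NIPBL, the cohesin loader (10.3). The second gene with a loss was DNMT3B, a de novo DNA methyltransferase (5.16). Histone marks at these promoters do not give the amount of the proteins.

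The identity of the cells was checked by H2A.Zac at the start sites of marker genes. Of the genes of the erythroid and early blood program of K562 cells, TAL1, KLF1, HBG1, HBG2, TFRC and LMO2 had it, while GATA1 had no region of either mark at its canonical start site. H2A.Zac was also listed at 1 of 4 B-cell markers, 3 of 4 T-cell markers and 2 of 6 neuronal markers, so the mark alone does not define the cell type. Of the neuronal markers, MAP2 and TUBB3 had H2A.Zac, and RBFOX3, SYT1 and STMN2 had neither mark.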

How the data were processed

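Reads were 100-bp paired ends. Per the study's methods and the labels, the authors aligned them to hg38 with Bowtie2 (2.4.5), called peaks with MACS2 (2.2.7.1) and compared the lines with its bdgdiff command, on merged replicates scaled to effective depth. The deposited score of each region is the log10 likelihood ratio. Regions were kept where at least 25% lay in reproducible peaks, which favors sites shared by replicates. The 6 lists (lost, gained and unchanged for each mark) were used as deposited. No column was left unmapped.

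Genes and canonical start sites were taken from GENCODE 44 and sequences from hg38. A region was counted once, at a start site if within 1 kb, and on the other mark if 25% of it overlapped. Shares carry 95% Wilson intervals (Python 3.11.15, scipy 1.17.1), and counting was tested on simulated regions. No test between lines was possible, and depth per sample is unknown. Named genes were every member with a region at its start site, the other genes of the locus and the lists above. The members and lists were chosen with earlier results of these data known. A marker gene of K562 cells is not reported here.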

Additional observations from a re-analysis of the deposited data

How the results depend on the processing

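Of 58 alternative values for 15 results, 51 were close to the reported value (a share within its Wilson interval, a count within 1.5 times), none reversed and 7, all shares, moved out of the interval. The region counts and gained shares of the locus stayed close with no flank, a 50 kb flank and merging of near regions, and the gained shares also with base pairs counted instead of regions. The shares on the other mark stayed close under other overlaps, and the counts of members with each mark under other start-site windows. Under a stricter cutoff of 10 on the log10 likelihood ratio, gains were 100 percent of the changed H2A.Zac regions (n = 1), and no H2A.Z region was left, so that alternative gave no value. A cutoff of 5 left 5 of the 9 gained H2A.Z regions, and a width of at least 500 bp left 1 of them and put gains at 66.7% of changed H2A.Zac regions (n = 3). The background moved most. The share of all genes with H2A.Z reaching under 100 bp upstream was 37.1% with regions on the start site or the 500 bases after it, 26.6% over at most 1 kb of H2A.Z and 27.8% in G + C-poor promoters (members included), alternatives chosen after seeing the data. H2A.Z at the start site was listed for 23.1% of HOX genes, 79.9% of ZNF genes of chromosome 19 and 16.7% of protocadherins outside the clusters. No paired analysis was possible because the lists hold no value per replicate. The cause of these differences was not tested. With merged replicates and 1 clone per line, the spread between cultures and between clones is unknown.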
